A study of Mus musculus with 6 samples.

Results

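The 9 genes described here encode receptors and transcription factors of interferon signalling: the receptor chains Ifnar1, Ifnar2 and Ifngr1, the signal transducers Stat2 and Stat3, and the interferon regulatory factors Irf1, Irf3, Irf7 and Irf9. They were taken by gene name from a table of 54532 genes, where each name occurred in 1 row, and all 9 were among the 13874 genes that passed a filter on low counts. On GRCm38 they lie on chromosomes 16 (Ifnar1, Ifnar2), 10 (Ifngr1, Stat2), 11 (Stat3, Irf1), 7 (Irf3, Irf7) and 14 (Irf9). RNA was sequenced in 6 libraries of cells of 2208L, a mammary tumour of the mouse that was carried in Balb/c hosts. The 3 CTC libraries came from circulating tumour cells grown on from the blood of these mice, and the 3 PT libraries held tumour cells enriched from the dissociated primary tumours of the same mice, so that equal replicate numbers mark 1 mouse. All samples were labelled as untreated, and no age or further genotype was given. Since no such growth step is described for PT, handling and group cannot be told apart.

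Type I interferons bind a receptor made of the Ifnar1 and Ifnar2 chains, and the kinases Jak1 and Tyk2 then phosphorylate Stat2, which joins Irf9 in the complex ISGF3. ISGF3 binds a DNA element called the interferon-stimulated response element and switches on antiviral genes, among them Irf7, Irf9 and Stat2 themselves. Interferon gamma acts through Ifngr1 and Ifngr2 on genes with gamma-activated sites, of which Irf1 is well known. Irf3 is present in resting cells and, with Irf7, switches on the interferon genes when foreign or misplaced nucleic acid is sensed. Stat3 mostly answers cytokines of the IL-6 family and drives acute-phase genes and its own inhibitor Socs3.

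Promoter sequences are shown for Stat2, Irf7 and Irf9, which shared a pattern over the libraries, and for Irf1, which did not share it. Each is the RefSeq window of GRCm38.p6 that runs from 250 bases before to 50 bases after an annotated start, written 5′ to 3′ on the gene's strand. Capitals mark matches to a pair of GAAA with any 2 bases between them, a core of the interferon-stimulated response element, or to TTCNNNGAA, the palindrome of the gamma-activated site, each searched on both strands.

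Stat2 (chr10:128270248-128270547, plus strand): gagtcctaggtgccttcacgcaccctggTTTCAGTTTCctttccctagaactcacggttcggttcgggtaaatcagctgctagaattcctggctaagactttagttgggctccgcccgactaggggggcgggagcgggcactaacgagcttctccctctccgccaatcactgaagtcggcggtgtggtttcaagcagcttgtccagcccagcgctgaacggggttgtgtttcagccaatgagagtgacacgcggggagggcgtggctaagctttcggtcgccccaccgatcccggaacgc
Irf7 (chr7:141266375-141266674, minus strand): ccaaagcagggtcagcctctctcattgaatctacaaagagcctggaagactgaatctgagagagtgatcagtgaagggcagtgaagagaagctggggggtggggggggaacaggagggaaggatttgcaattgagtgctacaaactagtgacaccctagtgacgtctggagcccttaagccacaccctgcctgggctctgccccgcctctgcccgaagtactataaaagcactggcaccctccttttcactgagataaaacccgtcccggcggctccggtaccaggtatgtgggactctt
Irf9 (chr14:55603735-55604034, plus strand, the upstream of 2 windows): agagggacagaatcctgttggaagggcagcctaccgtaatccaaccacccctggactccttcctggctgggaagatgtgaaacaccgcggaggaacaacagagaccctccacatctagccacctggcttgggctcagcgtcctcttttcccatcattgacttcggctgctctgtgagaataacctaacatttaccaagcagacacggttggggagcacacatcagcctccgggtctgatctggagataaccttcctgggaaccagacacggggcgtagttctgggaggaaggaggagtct
Irf1 (chr11:53769764-53770063, plus strand, the upstream of 2 windows): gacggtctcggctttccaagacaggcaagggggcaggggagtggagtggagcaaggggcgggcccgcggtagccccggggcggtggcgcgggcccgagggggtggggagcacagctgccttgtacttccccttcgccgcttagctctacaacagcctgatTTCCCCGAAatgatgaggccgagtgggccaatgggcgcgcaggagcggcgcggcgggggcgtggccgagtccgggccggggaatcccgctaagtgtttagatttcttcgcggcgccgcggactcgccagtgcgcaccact

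The Stat2 window held TTTCAGTTTC, a match to the paired GAAA on the opposite strand that began 222 bases before the start, and 3.44% of all 32851 windows held this motif. No window of the other 8 genes held it, and those of Irf7 and Irf9 held neither motif. Both Irf9 windows lay inside the gene as deposited, which starts at base 55603571, so the bases before that start were not searched. TTCNNNGAA was found in 8.3% of all windows. It stood in the upstream Irf1 window as TTCCCCGAA, 90 bases before the start, and in the Ifnar1 and Ifnar2 windows as TTCACGGAA and TTCCTGGAA, 5 and 214 bases before the start. No window of the 9 genes held both motifs, so no matches overlapped. A match is only a run of letters, and no match says nothing of sites outside these windows.

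Each library held between 23845953 and 27897320 counts, and the 9 genes had between 77 and 11286 counts, with none at 0. Levels are CPM, the standard scaling of a count to the size of its library, after edgeR's TMM scaling, as mean ± SD over 3 libraries, and a log2 fold change is positive where CTC was higher. The epithelial markers Krt8, Krt18, Epcam and Cdh1 summed to between 1971 and 4777 CPM in CTC and between 3596 and 4362 CPM in PT, and the lowest of the 6 was CTC replicate 3. That library also stood apart for Fabp4 and for the interferon-induced genes. The 6 leukocyte markers summed to at most 2.58 CPM in CTC and 1.99 CPM in PT, with 3 of them at 0 in all libraries.

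None of the 9 genes passed the test between CTC and PT. The edgeR quasi-likelihood test called 0 of 9, against 0% of the 13874 genes tested, and the smallest adjusted p among the 9 was 0.726. At an unadjusted p under 0.05 it took 1 of the 9, Irf3, against 6.62% of all genes. DESeq2 called 0 of the 7 that it gave an adjusted p, against 0.631% of its genes, and gave none for Stat2 and Irf7. It called 0 of 9 with the replicate block, against 1.87%, and limma-voom also called 0 of 9, against 0% of its genes. By log2 fold change 6 were positive and 3 negative, with a median of 0.21, beside 0.05 for all genes tested.

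**Figure D1:**
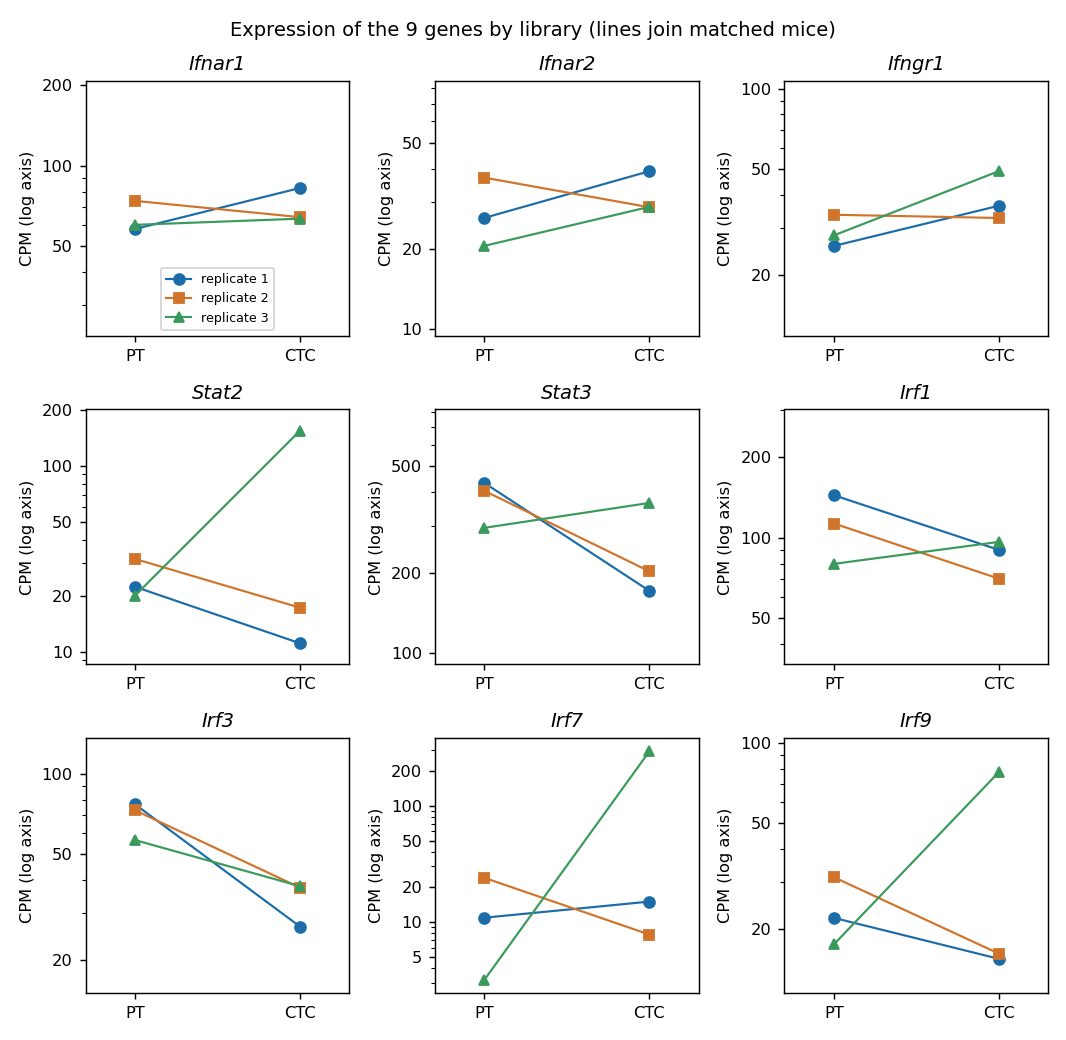
Level of each of the 9 genes in CPM (log axis) in the PT and CTC libraries; each point is 1 library and each line joins the libraries of 1 mouse. Irf7, Stat2 and Irf9 reached 293.7, 154.4 and 77.6 CPM in CTC replicate 3, and Irf3 was lower in CTC in all 3 mice.

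Irf7, Stat2 and Irf9 stood high in 1 library, CTC replicate 3. In bulk RNA, more cells with a transcript and more transcript per cell cannot be told apart. Irf7, which drives the interferon alpha genes, was at 14.98, 7.80 and 293.7 CPM in CTC replicates 1, 2 and 3 and at 10.9, 23.95 and 3.20 CPM in PT replicates 1, 2 and 3. CTC replicate 3 was thus 12.3 times the next highest library, while its matched tumour, PT replicate 3, was the lowest of the 6 with 77 counts. The other CTC libraries lay within the range of PT. The mean was 105.5 ± 163 CPM over the CTC libraries and 12.7 CPM over those of PT, where the SD was 10.49 (n = 3 each). The log2 fold change was 3.06 (SE 1.37, adjusted p = 0.726 in edgeR), and its 95% interval ran from -0.12 to 6.23.

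Stat2, a subunit of ISGF3, was at 11.1, 17.2 and 154.4 CPM in CTC, against 22.3, 31.5 and 20.0 CPM in PT. CTC replicate 3 was 4.9 times the next library, and CTC replicates 1 and 2 lay below every PT library. The log2 fold change was 1.31 (SE 0.91, adjusted p = 0.757 in edgeR). Irf9, the DNA-binding part of ISGF3, was at 15.5, 16.2 and 77.6 CPM in CTC, against 22.1, 31.3 and 17.6 CPM in PT. Its order of libraries was close to that of Stat2, with CTC replicate 3 at 2.48 times the next and the other CTC libraries lowest. The log2 fold change was 0.62 (SE 0.65, adjusted p = 0.823 in edgeR).

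At least a 2-fold lead of CTC replicate 3 over every other library was seen in 3 of the 9 genes, against 1.97% of all genes tested; it was chosen as a measure after the values were seen. Without CTC replicate 3 the log2 fold changes of Irf7, Stat2 and Irf9 were -0.16, -0.80 and -0.58, and with the replicate block they were 1.12, 0.20 and 0.16. Irf7 was called (adjusted p = 0.0235 in edgeR) when no filter on low counts was applied, a setting that called 0.728% of genes. Within mice the log2 difference of Irf7 was 0.46, -1.61 and 6.49 for replicates 1, 2 and 3. That of Stat2 was -1.01, -0.87 and 2.94, and that of Irf9 was -0.51, -0.95 and 2.14. All 3 genes were lower in CTC than in PT in mouse 2, and all 3 were higher in mouse 3.

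**Figure D2:**
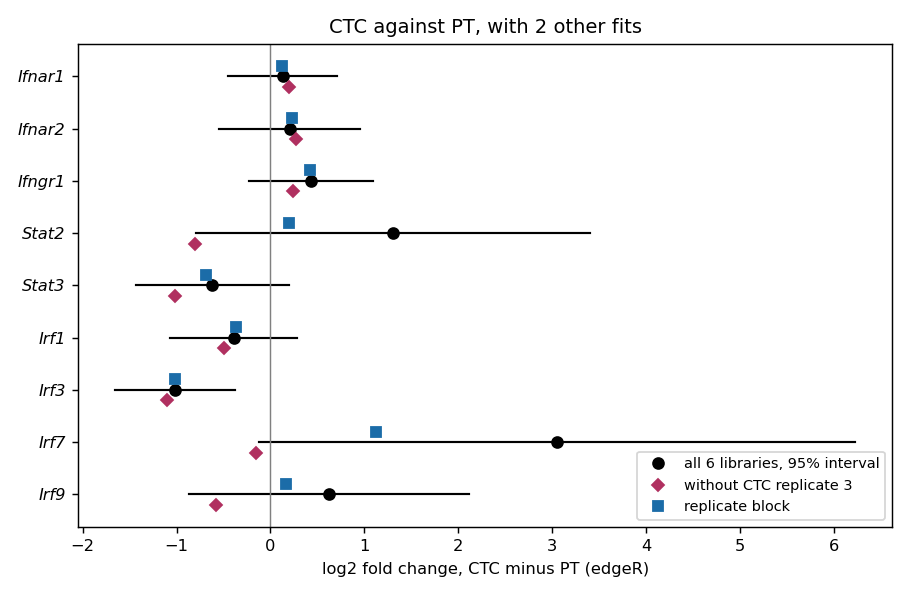
Log2 fold change of each gene, CTC minus PT, with its 95% interval from edgeR (black), without CTC replicate 3 (diamonds) and with the replicate block (squares). The values of Irf7, Stat2 and Irf9 moved to -0.16, -0.80 and -0.58 without CTC replicate 3, while Irf3 stayed near -1.

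Irf3 was the only one of the 9 whose groups did not overlap. The gene (ENSMUSG00000003184, chromosome 7, 44997648 to 45002848, GRCm38) encodes a factor that waits in the cytosol until a sensing pathway activates it. It was at 26.8, 37.4 and 37.9 CPM in CTC, against 76.8, 72.9 and 56.4 CPM in PT, so that every PT library lay above every CTC library. The means were 34.0 ± 6.30 and 68.7 ± 10.8 CPM (SD, n = 3 each), and the PT mean was 2.02 times the CTC mean. The log2 fold change was -1.01 (SE 0.28, 95% interval -1.65 to -0.37; unadjusted p = 0.00651, adjusted p = 0.726 in edgeR). A two-sided exact permutation test of the 3 against 3 log2 values gave p = 0.1, the smallest this design allows.

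Absence of overlap with CTC lower was found in 6.16% of all genes tested, and in either direction in 12.1%, so 1 of 9 is near the background. The log2 difference of Irf3 within mice was -1.52, -0.96 and -0.57, negative in 3 of 3, as it was for 15.3% of all genes tested. Over all alternatives its log2 fold change stayed between -1.23 and -0.76, with adjusted p-values from 0.144 to 1. Irf3 shares 1065 bases of its locus with Bcl2l12 on the opposite strand, which had 118 to 304 counts per library against 754 to 2003 for Irf3.

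Irf1, a factor induced by interferon gamma and by inflammatory signals, was among the more even of the 9. It was at 90.1, 70.3 and 96.5 CPM in CTC, against 144.3, 113.1 and 79.9 CPM in PT. The groups overlapped, since PT replicate 3 lay below 2 CTC libraries, and CTC replicate 3 did not stand out. The log2 fold change was -0.39 (SE 0.29, adjusted p = 0.769 in edgeR), and it was -0.17 without PT replicate 1.

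Stat3 had the highest counts of the 9 and was lowest in CTC replicates 1 and 2. It was at 170.8, 202.1 and 364.6 CPM in CTC, against 432.7, 404.4 and 294.2 CPM in PT. CTC replicates 1 and 2 lay below all PT libraries, whereas CTC replicate 3 lay above PT replicate 3. The log2 fold change was -0.62 (SE 0.35, 95% interval -1.44 to 0.20; adjusted p = 0.727 in edgeR). It was -1.02 without CTC replicate 3 and -0.41 without CTC replicate 1. Within mice the log2 difference was -1.34, -1.0 and 0.31.

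The 3 receptor genes varied least. Ifnar1 was at 82.5, 64.2 and 63.4 CPM in CTC, against 58.0, 73.9 and 60.1 CPM in PT, a range of 1.42-fold over the 6 libraries. Ifnar2 was at 39.1, 28.6 and 28.8 CPM in CTC, against 26.1, 37.0 and 20.5 CPM in PT, a range of 1.9-fold. Ifngr1, the ligand-binding chain for interferon gamma, was at 36.4, 32.8 and 49.1 CPM in CTC, against 25.8, 33.7 and 28.2 CPM in PT. All 3 overlapped between groups, and the highest library was CTC replicate 1 for Ifnar1 and Ifnar2 but CTC replicate 3 for Ifngr1. Their log2 fold changes were 0.13, 0.21 and 0.43, with adjusted p-values of 0.897, 0.870 and 0.747 in edgeR. Without CTC replicate 1 that of Ifnar1 was -0.0044. The 95% intervals reached at most 0.71, 0.96 and 1.10, and their lower ends were all negative.

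Ifnar2 and Ifnar1 lie in a cluster on chromosome 16 with Il10rb between them and Ifngr2 after them, at gaps of 574, 59403 and 39630 bases. Il10rb, the shared second chain of the IL-10 and lambda interferon receptors, was at 30.3, 20.3 and 23.6 CPM in CTC, against 18.4, 42.5 and 23.5 CPM in PT. Ifngr2, the second chain for interferon gamma, was at 93.3, 73.6 and 46.1 CPM in CTC, against 53.9, 71.9 and 25.9 CPM in PT. For both the groups overlapped. Within PT all 4 genes of the cluster were highest in replicate 2.

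Per length, Stat3 and Irf1 had the highest medians of the 9, and Irf9, Irf7 and Stat2 the lowest. The median level over 6 libraries, in TPM (the count divided by the deposited gene length and scaled to the same total in every library), was 95.1 for Stat3, 68.5 for Irf1, 39.2 for Irf3, 29.5 for Ifngr1, 29.4 for Ifnar1 and 23.9 for Ifnar2. It was 9.69 for Irf9, 9.52 for Irf7 and 9.42 for Stat2. Neighbours in this order overlapped in range, but Irf1 lay above Irf3, and Ifnar1 above Ifnar2, in 6 of 6 libraries. Irf7 was at 227.8 TPM in CTC replicate 3, where it ranked 1 of the 9, and at 2.39 TPM in PT replicate 3, where it ranked 9. The deposited length of Irf7, 3776 bases, equals its whole genomic span, and its longest coding transcript in GENCODE M21 has 2237 bases. In an alternative added after the data were seen, the length of each of the 9 was replaced by that of its longest coding transcript. The library totals were left as they were, so every median had to rise, for example to 149.9 for Stat3 and 16.1 for Irf7. These values are not TPM as defined above, and only their order can be read. The order changed only in that Ifnar1 (44.6) stood above Ifngr1 (39.7).

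Further STAT and IRF genes on the lists gave no call in edgeR, nor did any other list, since it called 0% of the 13874 genes tested. The 0 called that is given for each list below therefore says nothing particular about that list. Of 4 such STAT genes 3 were tested and 0 were called in either direction, with a median log2 fold change of -0.42. Stat5a and Stat5b, which answer prolactin in mammary epithelium and lie beside Stat3 on chromosome 11, were lowest in CTC replicate 1 at 14.9 and 37.8 CPM, where Stat3 was lowest too. Stat5a overlaps Stat3 by 72 bases on the opposite strand. Stat6 ranged from 70.9 to 114 CPM. Of 4 such IRF genes 3 were tested and 0 were called, with a median of -0.02. Irf2, a repressor of Irf1 targets, was at 27.8 ± 2.10 CPM in CTC, against 28.2 ± 1.06 CPM in PT. Irf5 and Irf8, best known from myeloid cells, reached at most 13.1 and 11.4 CPM, and Irf8 was lowest in CTC replicate 3 at 0.117 CPM.

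Among kinases and further receptors, Jak1 and Il20rb had groups that did not overlap. Jak1, used by all interferon receptors, was at 165, 124 and 107 CPM in CTC, against 65.0, 84.3 and 71.7 CPM in PT (log2 fold change 0.84, SE 0.27, adjusted p = 0.726 in edgeR). Such separation was found with CTC higher in 5.95% of all genes tested and with CTC lower in 6.16%. Tyk2, Jak2 and Jak3 overlapped, at 42.5 ± 7.74, 36.7 ± 16.7 and 26.1 ± 3.71 CPM in CTC, against 52.9 ± 19.6, 24.8 ± 12.4 and 26.3 ± 8.15 CPM in PT. Il20rb, a chain of the receptors for IL-19, IL-20 and IL-24, was at 1.03, 1.54 and 8.37 CPM in CTC, against 18.1, 26.9 and 26.3 CPM in PT. Its log2 fold change was -2.70 (SE 0.79, adjusted p = 0.726 in edgeR), and DESeq2, which called 0.631% of its genes, called it (adjusted p = 0.011). Of the class II cytokine receptor list 5 of 7 genes were tested, with a median of -0.16, and the remaining tested genes Ifnlr1 and Il22ra1 were at 13.5 ± 2.56 and 1.38 ± 1.34 CPM in CTC, against 12.9 ± 3.69 and 1.55 ± 0.50 CPM in PT.

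Of 13 negative regulators all were tested and 0 were called, with a median log2 fold change of -0.20. Socs3, which blocks signalling through gp130 and Stat3, was at 23.5, 47.7 and 108 CPM in CTC, against 141, 143 and 141 CPM in PT, so that the groups were apart (log2 fold change -1.24, SE 0.50, adjusted p = 0.726 in edgeR). Its order within CTC was that of Stat3, lowest in replicate 1 and highest in replicate 3. Ptpn6, a phosphatase of JAK signalling, was the other without overlap, at 10.3 ± 1.65 and 19.9 ± 1.42 CPM. That makes 2 of 13 with CTC lower, against 6.16% of all genes tested. The phosphatase Ptpn11 was at 320 ± 63.6 and 265 ± 57.9 CPM and the SUMO ligase Pias4 at 52.2 ± 5.90 and 61.9 ± 26.5 CPM. Ptpn1, a phosphatase that acts on Jak2 and Tyk2, was at 393 CPM in CTC replicate 3 and no higher than 147 CPM in the others.

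Transcripts of the interferons themselves were nearly absent. The 21 interferon genes had 28 counts in all over the 6 libraries, 14 of the genes were at 0 in each, and none passed the filter. CTC replicate 3 held 4 of these counts, 3 of them from Ifnb1, and CTC replicate 1 held 15, with at most 9 from 1 gene. A count of 0 allows up to 3 counts, at most 0.129 CPM per library, and this limit covers counting error only. Of 7 adaptors and kinases upstream of Irf3 and Irf7 all were tested and 0 were called, with a median log2 fold change of 0.07. The kinase gene Tbk1 was at 59.0 ± 21.2 CPM in CTC, against 35.1 ± 13.2 CPM in PT, and the adaptor gene Myd88 at 42.2 ± 18.8 and 52.7 ± 12.3 CPM. Another adaptor gene, Mavs, ranged from 44.0 to 64.1 CPM. Tmem173, which encodes STING, was at 9.76, 7.46 and 37.6 CPM in CTC, against 30.1, 49.2 and 46.4 CPM in PT, low in the CTC libraries other than replicate 3. Traf3 was without overlap, higher in CTC at 65.4 ± 12.6 against 42.5 ± 10.4 CPM (adjusted p = 0.726 in edgeR). That makes 1 of 7 with CTC higher, against 5.95% of all genes tested.

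Most interferon-induced genes were highest in the library where Irf7, Stat2 and Irf9 were. Of 23 interferon-induced genes 22 were highest in CTC replicate 3, against 14.1% of all genes, and 21 stood there at least 2 times above every other library. Isg15, a ubiquitin-like antiviral protein, was at 220 CPM in that library and no higher than 19.7 CPM in the others, and Bst2, which tethers virus particles, was at 580 and at most 118 CPM. Oasl1 was at 141 and at most 54.1 CPM, and Ifi35 at 75.9 and at most 57.3 CPM. All 23 had positive log2 fold changes with a median of 2.18, and 0 were called. Without CTC replicate 3 the median was 0.14, with 10 of 23 negative.

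Of 17 genes linked to Irf1 and interferon gamma, 15 were tested, of which 0 were called and 13 were highest in CTC replicate 3, against 14.1% of all genes tested. Their median log2 fold change was 1.41 with all libraries and -0.39 without CTC replicate 3. The guanylate-binding gene Gbp2 was at 25.6, 26.5 and 78.6 CPM in CTC, against 22.9, 21.5 and 17.2 CPM in PT. The immunity GTPase gene Igtp was at 83.1 CPM in CTC replicate 3 and no higher than 12.7 CPM in the others, the proteasome gene Psmb8 at 155 and at most 90.8 CPM, and B2m at 595 and at most 349 CPM. Irf1 itself did not share this lead. Gbp2, Gbp3 and Cd274 were higher in every CTC library than in every PT library, which makes 3 of 15 against 5.95% of all genes tested.

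Of 16 genes linked to Stat3, a list that shares Socs3 with the negative regulators, all were tested and 0 were called, with 13 negative log2 fold changes and a median of -0.70, beside 0.05 for all genes tested. Without CTC replicate 3 the median was -1.03. Groups did not overlap, with CTC lower, for 5 of 16, against 6.16% of all genes tested; these were Socs3, Bcl3, Bcl2l1, Ccnd1 and Lbp. The cyclin D1 gene Ccnd1 was at 747, 570 and 452 CPM in CTC, against 896, 929 and 1120 CPM in PT. The acute-phase gene Hp was at 0.28 CPM in CTC replicate 1, where Stat3 was lowest, and at 446 and 897 CPM in CTC replicates 2 and 3, but it was also low in PT replicate 1 (34.7 CPM), where Stat3 was highest. Lcn2 ranged from 252 to 777 CPM in CTC and from 615 to 4160 CPM in PT, and Timp1 was at 112 ± 31.0 against 172 ± 45.3 CPM. DESeq2 with the replicate block called Bcl3 and Lcn2 lower and Saa3 higher (adjusted p = 0.0385, 0.0383 and 0.00813), in a setting that called 1.87% of its genes. The groups of Lcn2 and Saa3 overlapped.

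**Figure D3:**
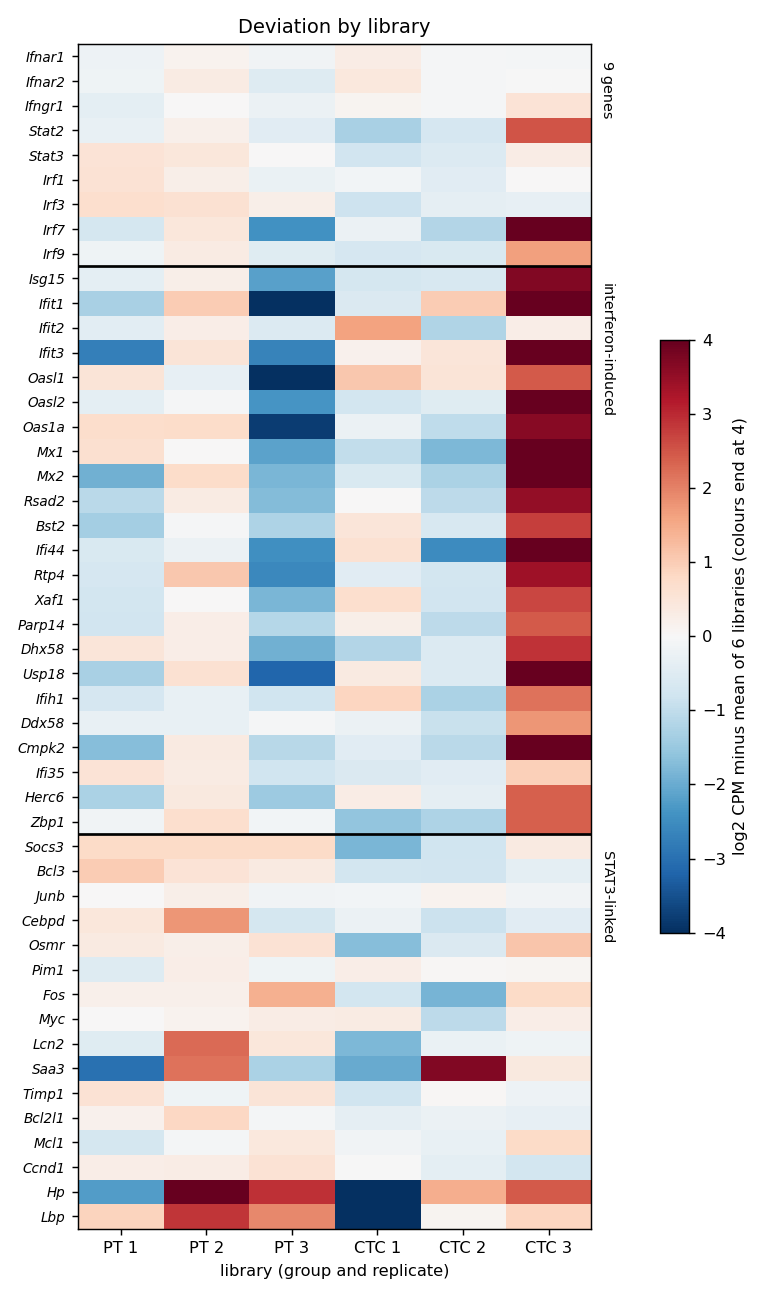
Log2 CPM of each gene minus its mean over the 6 libraries, for the 9 genes (top), the 23 interferon-induced genes (middle) and the 16 genes linked to Stat3 (bottom); each column is 1 library and colours end at 4 in either direction. CTC replicate 3 was at least 2 times every other library for Irf7, Stat2, Irf9 and 21 of the 23 interferon-induced genes.

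Over the 6 libraries the pattern of Irf7 was most like those of the interferon-induced genes Gbp7, Rsad2 and Isg15, with Pearson correlations of log2 CPM of 0.994, 0.988 and 0.987 among 12018 protein-coding genes. Stat2 was most like Blmh, Irf9 and Trim14 (0.987, 0.982 and 0.978), and Irf9 most like Stat2, Parp12 and Oxsm (0.982, 0.979 and 0.976). These values describe 6 libraries only. Oxsm spanned only 0.54 log2 units against 2.32 for Irf9, and lies on the same chromosome 14. Among the 9, Irf7 also ran with Irf9 (0.92), Ifngr1 (0.87) and Stat2 (0.86). Ifnar1 and Ifnar2 ran together too (0.89), as did Stat3 and Irf3 (0.84).

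Genes near Irf3 and Ifngr1 differed between libraries in the same direction as these genes. Around Irf3, 101 tested genes within 2 Mb had a median log2 deviation of -0.55 in CTC replicate 1 and 0.72 in PT replicate 1, beside -0.84 and 0.68 for Irf3. Averaged over libraries, the neighbours differed between groups by -0.60 (CTC minus PT) and Irf3 by -1.02. For Ifngr1 the 19 neighbours differed by 0.43 and the gene by 0.42. The 63 neighbours of Irf7, also on chromosome 7, differed by -0.57, whereas Irf7 differed by 1.78. They ran from -0.53 in CTC replicate 1 to 0.54 in PT replicate 1. In CTC replicate 3 the neighbours of Irf7, Stat2 and Irf9 lay at -0.16, 0.18 and -0.02, beside 4.06, 2.50 and 1.64 for the genes themselves. Around Stat3 the 93 neighbours differed by -0.22 and the gene by -0.68, both lowest in CTC replicate 1 and highest in PT replicate 1. The neighbours of Ifnar1 and Ifnar2 were highest in CTC replicate 1 (0.24), as were these genes (0.31 and 0.41). Those of Ifnar1, Ifnar2, Stat2 and Irf9 differed between groups by 0.02 to 0.16, with the sign of the gene. Those of Irf1 differed by 0.06 and Irf1 by -0.36. The part of the neighbourhood in all these differences was not tested.

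**Figure D4:**
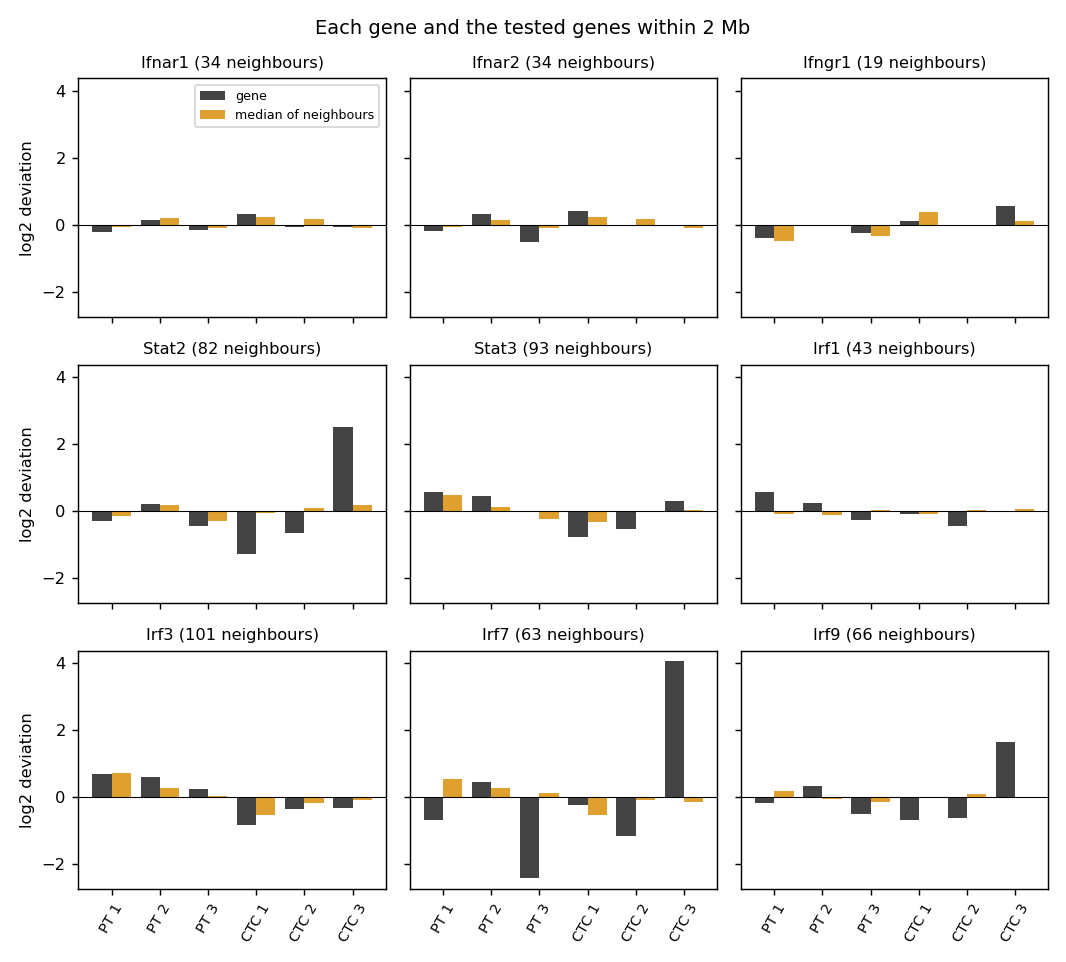
Log2 deviation of each gene from its mean over the 6 libraries (dark bars) and the median deviation of the tested genes within 2 Mb on either side (light bars), by library. The neighbours of Irf3 ran from -0.55 to 0.72 alongside the gene, whereas those of Irf7 lay at -0.16 in CTC replicate 3, where Irf7 was at 4.06. The Irf7 neighbours ran from -0.53 in CTC replicate 1 to 0.54 in PT replicate 1.

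Most markers of host cells were low in CTC replicate 3, but Fabp4, Pdgfra and some collagen genes were high there, beside Irf7, Stat2, Irf9 and the interferon-induced genes. The adipocyte gene Fabp4, a fatty acid carrier that endothelial cells and macrophages also express, was at 347 CPM in CTC replicate 3 and no higher than 2.19 CPM in the others. The 7 adipocyte markers summed to between 0.5325 and 350.4 CPM in CTC and between 1.035 and 2.447 CPM in PT. Of these, Lep was at 0 in all libraries and Adipoq had 2 counts in all. Cidec, Plin1 and Cfd were also highest in CTC replicate 3, at 1.37, 1.21 and 1.13 CPM. In the other libraries they reached at most 0.258, 0.843 and 0.0383 CPM. Lpl was at 0.0391 CPM in CTC replicate 3 and was highest in CTC replicate 1 (0.213 CPM). The 6 further fibroblast markers summed to 613.9 CPM in CTC replicate 3, the highest of CTC (lowest 1.562 CPM), and to between 14.85 and 635.2 CPM in PT. Col3a1 was at 125 CPM there and no higher than 23.4 CPM in the others, whereas Col6a3, at 345 CPM, was higher in PT replicate 1 (545 CPM), and Lum was at 0 in all libraries. The 4 first fibroblast markers summed to 39.5 CPM there, within 8.80 to 50.02 CPM in CTC and 14.9 to 68.7 CPM in PT. Of these, Pdgfra was at 38.7 CPM there, the highest of the 6 libraries, and Dcn at 0.391 CPM. Both the adipocyte and the further fibroblast markers were added after values of this kind had been seen.

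The 3 neutrophil markers summed to 25.8 CPM in CTC replicate 3, with 25.3 CPM from S100a8 and 0.51 CPM from S100a9, and Ly6g was at 0 in all libraries. Their sums were 0.6745 to 25.8 CPM in CTC and 4.02 to 16.3 CPM in PT. The 5 macrophage markers summed to 3.79 CPM there, in a range of 3.79 to 23.5 CPM in CTC and 1.16 to 4.76 CPM in PT, with 2 of the 5 at 0 in all libraries. The 6 leukocyte markers summed to 0.43 CPM there, the lowest of CTC, and the 3 plasmacytoid dendritic cell markers to 0.0782 CPM. The latter were at most 0.639 CPM in CTC and 0.73 CPM in PT. The 3 lymphocyte markers summed to at most 0.307 CPM and the 3 endothelial markers to at most 1.88 CPM in any library. The part of all these markers in the result was not tested. The sum of the epithelial markers was lowest in CTC replicate 3, at 1971 CPM, although Cdh1 (163 CPM there) was lower in PT replicate 2 (152 CPM).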

How the data were processed

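RNA was sequenced in 3 CTC and 3 PT libraries. The authors deposited raw counts of reads per Ensembl gene and, as another value, a gene length in bases. HISAT2, GRCm38 and mm10 are named per the submitters' processing notes. The read counter, its strand setting and the annotation are not stated in the sources used here, so reads of overlapping genes could not be separated.

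All 6 libraries were fitted with edgeR 4.0.16 (filterByExpr, TMM, quasi-likelihood test; R 4.3.3), with Benjamini-Hochberg adjustment over 13874 genes and a threshold of 0.05. For log2 CPM the prior count was 2. Alternatives were DESeq2 1.42.0, limma-voom (limma 3.58.1), the replicate block, other scalings and filters, and leaving out libraries. The fit was run on simulated counts, where it called 52.2% of 2-fold, 97.6% of 4-fold and 98.2% of 8-fold changes. Every simulated gene had the same spread and no pairing by mouse, so these shares do not hold for the spread of these libraries.

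Labels pair libraries by mouse. Within mice, deviations from the group mean correlated at -0.015, 0.157 and 0.298 across genes. Between mice the correlations ran from -0.265 (CTC replicate 2 with PT replicate 3) to 0.173 (CTC replicate 1 with PT replicate 2). The libraries of 1 mouse were never averaged, and no 2 libraries agreed within sampling noise (chi-square per degree of freedom at least 90.4). Floors for counts cover counting error only. The intervals of the log2 fold changes came from the edgeR quasi-likelihood fit and take in the spread between libraries.

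The 9 genes, lists and rules were chosen with earlier results of these data known. Named were all 9, the tested genes of lists with up to 5 of these, the 4 with the highest mean TPM of longer lists, and the 3 genes most correlated with each of the 9 that spanned at least 2 log2 units; other genes were named after their values were seen. Some genes of this pathway are not reported here. Promoter windows came from RefSeq (GRCm38.p6), matched by symbol for all 9.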

Additional observations from a re-analysis of the deposited data

How the results depend on the processing

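Each gene's log2 fold change was recomputed under 18 alternatives. Ifnar2, Ifngr1, Stat3, Irf1 and Irf3 kept their direction in all 18 (0.02 to 0.52, 0.21 to 0.65, -1.17 to -0.28, -0.69 to -0.17 and -1.23 to -0.76) and were never called. Without CTC replicate 3 the log2 fold changes of Stat2, Irf7 and Irf9 turned to -0.80, -0.16 and -0.58, and without replicate 3 of both groups to -0.93, -0.62 and -0.76. That of Ifnar1 turned to -0.0044 without CTC replicate 1 and to -0.052 without replicate 1 of both groups. Leaving out single libraries gave at most 0.23 for Ifnar1, 1.80 for Stat2, 3.89 for Irf7 and 0.98 for Irf9, and leaving out replicate 2 of both groups gave 1.96, 4.44 and 1.22 for Stat2, Irf7 and Irf9.

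With the replicate block, edgeR called 0 genes, and the log2 fold changes of Irf7, Stat2 and Irf9 were 1.12, 0.20 and 0.16; the block changed no call among the 9. DESeq2 called 43 genes higher and 48 lower (0.631% of its genes), and with the replicate block 119 and 134 (1.87%). With all low genes kept, edgeR called 121 and 78 (0.728%). Of the 9, only Irf7 was ever called under these alternatives, as 1 higher without the filter. In the lists, the class II receptors had 1 call lower (Il20rb) in DESeq2 with and without the replicate block and 1 without the filter. Without the filter the calls higher were 1 negative regulator (Usp18), 9 interferon-induced genes (Usp18, on both lists, among them) and 1 gene linked to Irf1 (Gbp3). DESeq2 with the replicate block called 1 interferon-induced gene (Ifit3) higher, and 1 higher and 2 lower among genes linked to Stat3. The cause of these differences was not tested. In all, 452 of 468 counts and levels were stable, and the others are those given above. Counts of calls were 0 in the main fit, so they could only stay at 0 or rise. The turned directions of single genes are not part of this tally. One library, CTC replicate 3, set the CTC means of Irf7, Stat2 and Irf9.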

Other observations

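Within PT, where CTC replicate 3 plays no part, Irf7, Stat2, Irf9 and many interferon-induced genes had the same order of libraries, highest in replicate 2, then replicate 1, then replicate 3. Irf7 was at 23.95, 10.9 and 3.20 CPM in that order, a 7.5-fold range, Stat2 at 31.5, 22.3 and 20.0 CPM, and Irf9 at 31.3, 22.1 and 17.6 CPM. Ifnar2 had it too, at 37.0, 26.1 and 20.5 CPM, which made 4 of the 9 genes. It held for 13 of 23 interferon-induced genes, for 6 of 15 genes linked to Irf1 and for 15.0% of all genes tested. Isg15 was at 19.7, 12.8 and 3.65 CPM. The order was picked after the values were seen and rests on 3 libraries, so it carries no test. The mouse with the lowest Irf7 in its tumour cells was the one with the highest Irf7 in its circulating cells.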
